A study of Homo sapiens with 8 samples.

Results

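The genes described here encode the carriers that move amino acids, and a few related solutes, across the plasma membrane and lysosomal membranes. They were chosen by symbol: every gene of the count table named SLC1A, SLC3A, SLC6A, SLC7A, SLC36A, SLC38A or SLC43A followed by digits was taken, which gave 59 of 26364 genes. Of these, 35 passed the filter on low counts and were tested, and 24 did not. RNA sequencing was done on Ishikawa cells, a cell line established from a human endometrial adenocarcinoma, which is known to carry a functional estrogen receptor. The groups were dexamethasone at 100 nM together with estradiol at 10 nM (the combination, Dex_E2), estradiol alone (E2), dexamethasone alone (Dex) and the vehicle DMSO, with 2 libraries each. Dexamethasone is a synthetic ligand of the glucocorticoid receptor, and estradiol is the main natural ligand of the estrogen receptor. All groups shared growth for at least 4 days in medium without phenol red and with charcoal-stripped serum, so the vehicle cells were deprived of steroids. The sample labels give a treatment of 8 hr and the shared treatment protocol gives 1 hr, which the sources used here do not settle. Nothing in the labels tells whether replicate libraries were grown as separate cultures. P-values therefore cover only the spread between libraries, which may be technical.

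Amino acids cross membranes through carriers that differ in what they carry and in what drives them. The SLC7 light chains pair with a heavy chain, SLC3A2 or SLC3A1, and exchange an amino acid inside the cell for another outside. Sodium-coupled carriers of the SLC1, SLC6 and SLC38 families accumulate the amino acids that such exchangers then trade. Leucine and other large neutral amino acids that enter in this way supply protein synthesis and activate the mTORC1 kinase. Taurine and betaine, which some SLC6 carriers move, also serve as osmolytes that hold cell volume, and taurine and glycine are abundant in the fluid of the uterus.

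The libraries held between 17846211 and 22487333 counts. All 6 epithelial markers examined stood at 179 CPM or more in every library, where CPM is the gene's count scaled to the TMM-adjusted size of the library. Among them PAX8, a transcription factor gene of Müllerian epithelium, was called lower in the combination than in dexamethasone, at 194 ± 19.6 CPM against 274 ± 3.36 CPM (SD, n = 2; adjusted p = 0.0484). Leukocyte markers reached at most 1.77 CPM (CD68) and CD3E had no count, while of the 6 endothelial genes PECAM1, CDH5 and TEK stayed under 0.1 CPM, VWF was at 1.75 to 2.86 CPM and ESAM at 5.74 to 7.77 CPM. Of the 6 fibroblast genes, DCN and LUM stayed under 0.1 CPM and PDGFRA under 1 CPM, whereas the collagen genes COL1A2, COL3A1 and COL1A1 had medians of 1.34, 12.7 and 142 CPM over the libraries. KDR, the remaining endothelial gene, was called higher against DMSO, at 1.09 ± 0.0226 CPM in the combination and 1.38 ± 0.112 CPM in dexamethasone, against 0.180 ± 0.117 CPM in DMSO (SD, n = 2), and the part of KDR or PAX8 in any result was not tested. The dexamethasone libraries differed from each other. GREB1 and PGR, genes known to respond to estrogen, were chosen after their values were seen. GREB1 was at 17.7 and 6.85 CPM in these dexamethasone libraries, against 8.03 and 6.71 CPM in DMSO. PGR, the progesterone receptor gene, was at 8.91 and 2.47 CPM in dexamethasone, against 4.09 and 2.53 CPM in DMSO. Replicate 2 had the lowest share of counts from RNA45S5, the ribosomal RNA precursor, at 1.42% against 2.79 to 4.03% in the other libraries, and the fewest genes with a count, 16969 against 17219 or more. Values without each of these libraries stand beside the main results that use the dexamethasone group. In bulk libraries, fewer cells that express a gene and less RNA per cell cannot be told apart.

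In the vehicle the carriers spanned more than 3 orders of magnitude. Of the 35 tested genes, 8 were above 100 CPM, 13 were between 10 and 100 CPM, 10 were between 1 and 10 CPM and 4 were below 1 CPM. Compared per length, as CPM per kilobase of exon, SLC7A5 was highest at 278 in DMSO. It encodes LAT1, the light chain that exchanges leucine and other large neutral amino acids. SLC1A5, the neutral amino acid exchanger ASCT2 that carries glutamine, followed at 127 CPM per kilobase, and SLC3A2, the heavy chain that LAT1 needs, at 123. The DMSO libraries of SLC1A5 and SLC3A2 overlapped on this scale, so their order is not resolved. SLC38A2 and SLC38A1, sodium-coupled importers of glutamine and alanine, stood at 99.5 and 77.1 CPM per kilobase, and SLC7A1, the arginine and lysine carrier CAT1, at 67.1. SLC7A11, the cystine and glutamate exchanger xCT, was at 25.1, SLC1A4, the exchanger of alanine, serine and cysteine ASCT1, at 17.6, SLC38A10 at 12.3 and SLC43A2, the leucine and phenylalanine carrier LAT4, at 11.8. The last pair overlapped between DMSO libraries as well.

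**Figure D1:**
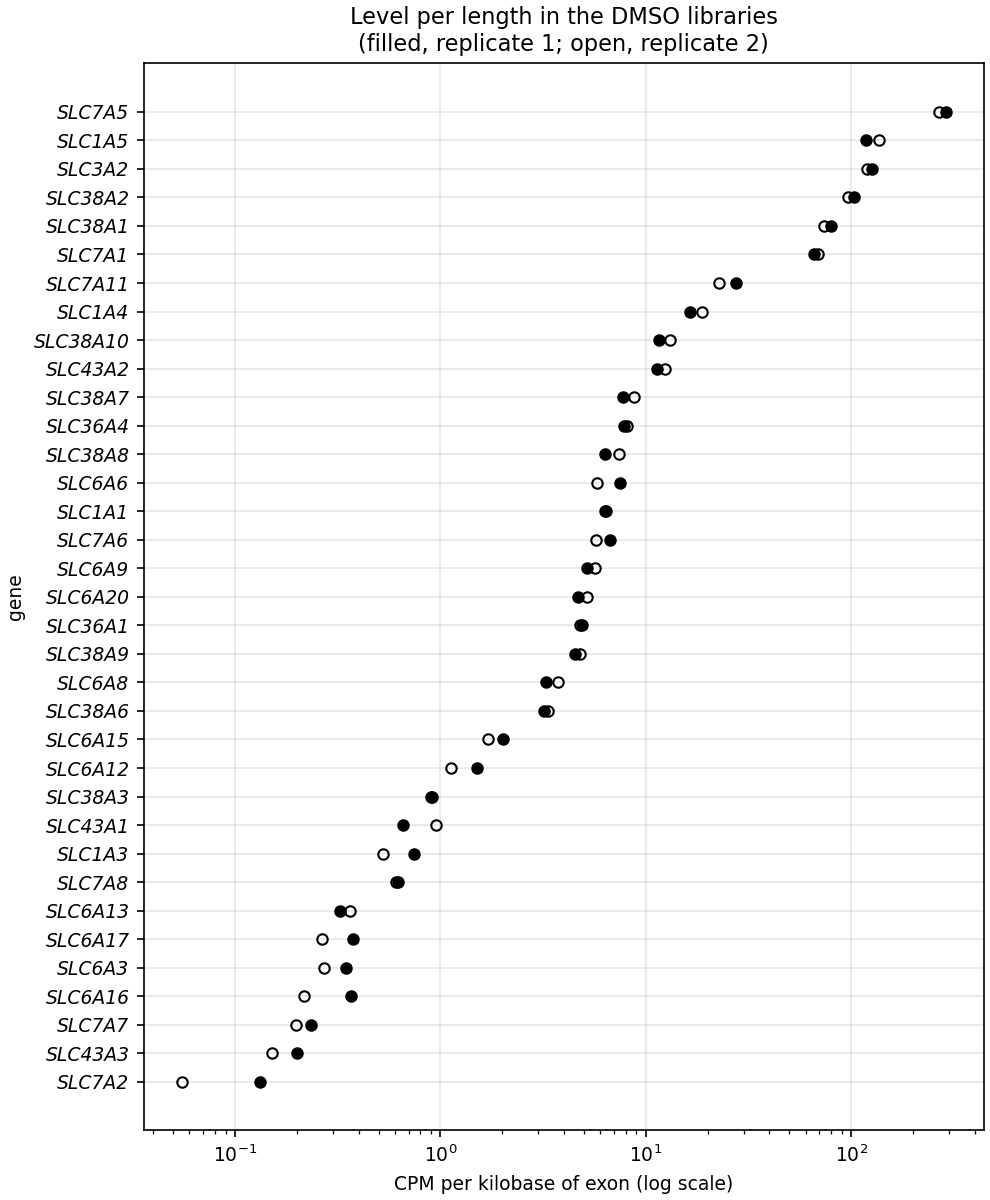
Level per length of the 35 tested carrier genes in DMSO, as CPM per kilobase of exon on a log axis, with a filled point for replicate 1 and an open point for replicate 2. SLC7A5 lies at the top, with a mean of 278, and SLC7A2, the lowest, has its replicates farthest apart.

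Of the 24 untested genes, 8 had no count in any library, which allows a joint level of up to 0.0184 CPM over the 8 libraries (3 counts of 163458508). These were SLC6A5, SLC6A7, SLC6A11, SLC6A18, SLC7A3, SLC7A4, SLC7A13 and SLC7A14, several of them carriers of brain or kidney. The other 16 untested genes had at most 11 counts in a library, which was reached by SLC6A4, the serotonin carrier. SLC3A1, the heavy chain of the kidney cystine carrier, and SLC6A14, a broad carrier of neutral and cationic amino acids, had at most 2 counts in any library. A heavy chain was therefore measurable only as SLC3A2.

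Promoters are shown for SLC7A5 and SLC6A20, which were called with estradiol, and for SLC3A2, the partner of SLC7A5, which was called with the combination. SLC6A6 and SLC6A12 have no entry in the promoter table used here. The promoters of SLC6A13 and SLC43A2, which were also called, were searched but are not printed. The printed promoters are the 250 bases before the transcript start from RefSeq, build GRCh38.p14, written 5′ to 3′ along the gene, and SLC3A2 has 3 starts. Capitals mark letters that match a searched motif. CACGTG, in SLC7A5, is the E-box bound by MYC and MAX, and TGACC, upstream of one SLC3A2 start, is the reverse complement of GGTCA, the core of the estrogen response element.
SLC7A5, chr16:87869508-87869757, minus strand: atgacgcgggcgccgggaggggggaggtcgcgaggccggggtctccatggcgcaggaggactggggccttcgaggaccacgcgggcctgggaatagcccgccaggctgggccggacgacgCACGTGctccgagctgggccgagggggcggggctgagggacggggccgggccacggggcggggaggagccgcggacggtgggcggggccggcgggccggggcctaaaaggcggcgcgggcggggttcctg
SLC3A2, chr11:62881449-62881698, plus strand: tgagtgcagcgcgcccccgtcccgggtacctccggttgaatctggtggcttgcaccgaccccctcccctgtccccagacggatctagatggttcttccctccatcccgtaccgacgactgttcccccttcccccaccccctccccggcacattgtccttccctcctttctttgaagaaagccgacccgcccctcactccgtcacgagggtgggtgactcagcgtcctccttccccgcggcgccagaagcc
SLC3A2, chr11:62855859-62856108, plus strand: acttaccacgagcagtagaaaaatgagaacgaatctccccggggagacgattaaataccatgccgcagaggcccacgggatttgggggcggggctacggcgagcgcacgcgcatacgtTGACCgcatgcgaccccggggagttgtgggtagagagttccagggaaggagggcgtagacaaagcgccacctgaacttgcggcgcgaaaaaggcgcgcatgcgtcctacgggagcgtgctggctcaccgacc
SLC3A2, chr11:62880646-62880895, plus strand: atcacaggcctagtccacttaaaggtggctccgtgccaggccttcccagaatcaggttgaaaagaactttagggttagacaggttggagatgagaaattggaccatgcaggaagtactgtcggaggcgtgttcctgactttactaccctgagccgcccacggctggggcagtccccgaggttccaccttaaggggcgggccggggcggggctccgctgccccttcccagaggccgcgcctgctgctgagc
SLC6A20, chr3:45796537-45796786, minus strand: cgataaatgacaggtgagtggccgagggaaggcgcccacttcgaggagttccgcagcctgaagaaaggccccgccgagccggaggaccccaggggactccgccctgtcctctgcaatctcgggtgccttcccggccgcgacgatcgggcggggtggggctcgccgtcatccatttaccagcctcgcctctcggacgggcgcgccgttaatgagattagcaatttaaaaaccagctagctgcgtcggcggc

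The other motifs searched on both strands were the full estrogen response element (GGTCA, any 3 bases, TGACC), the glucocorticoid receptor core AGAACA and its palindrome (AGAACA, any 3 bases, TGTTCT), the amino acid response element TGATGNAA of ATF4, and TGGAAA, the core of the tonicity element bound by NFAT5. GGTCA and AGAACA overlap the full elements by construction. Promoters were found for 44 of the 59 carrier genes, in 66 windows. CACGTG was in 9 of these 66 windows and in 6.35% of all 35114 promoter windows of the same length. GGTCA was in 16 of 66 windows against 32.7% of all windows, and AGAACA in 5 of 66 against 12.4%. TGATGNAA was in 2 of 66 against 3.14%, and TGGAAA in 11 of 66 against 18%. The full estrogen element was in 0 of 66 windows and 0.0399% of all windows, and the glucocorticoid palindrome in 0 of 66 and 0.00285% of all. These matches describe letters in a short window only. MYC itself was at 93.0 and 98.3 CPM in the combination, 95.2 and 109 CPM in estradiol, 105 and 117 CPM in dexamethasone, and 109 and 107 CPM in DMSO, and it was not called in any comparison.

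Estradiol against vehicle asked which carriers change with estradiol alone. With edgeR's quasi-likelihood test and a threshold of 0.05 on the adjusted p, 5 of the 35 tested carriers were called, where 1.80% of all 14201 genes tested were called. Of these 5, 4 rose and 1 fell, where 1.19% of all genes rose and 0.613% fell. The genes that rose were SLC7A5 and the SLC6 carriers SLC6A6, SLC6A12 and SLC6A13, and the gene that fell was SLC6A20. The median log2 fold change was 0.06 over the tested carriers and -0.00 over all genes.

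SLC7A5 had 2479 and 2494 CPM in estradiol, against 1321 and 1230 CPM in DMSO. It was also at 2339 and 2359 CPM in the combination and at 1661 and 1111 CPM in dexamethasone. The 4 libraries with estradiol lay within a narrow band above all 4 without it, and the dexamethasone libraries were on either side of DMSO. SLC7A5 rose with estradiol by 0.96 ± 0.16 on the log2 scale (1.95-fold, adjusted p = 0.0100). After a log2 change, here and below, ± gives a standard error (SE) from the edgeR fit, not an SD. The call was lost without either estradiol library or without DMSO replicate 2 (adjusted p between 0.0506 and 0.123). SLC7A5 shares stretches of 537 bases at 96.6% identity with SLC7A5P1, 536 bases at 96.3% with SLC7A5P2 and 604 bases at 95.7% with SMG1P3, all pseudogenes. These 3 reached at most 2.21, 3.40 and 3.89 CPM in any library, and how reads were split between them and SLC7A5 is not known here.

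SLC3A2, its heavy chain, had 457 and 496 CPM in estradiol, against 335 and 316 CPM in DMSO. These groups did not overlap, yet the difference of 0.55 ± 0.14 did not pass the threshold (adjusted p = 0.0878 in edgeR), while DESeq2 called it with an adjusted p of 0.0049. In edgeR, SLC3A2 was also called with no filter on low counts (adjusted p = 0.00772) and when only the libraries compared were fitted (adjusted p = 0.0194). A replicate block called it too (adjusted p = 0.0342), as did leaving out either dexamethasone library, at 0.55 each. It was not called with RLE scaling or when a DMSO, estradiol or combination library was left out. Per kilobase, the level of SLC7A5 was 3.14 and 2.91 times that of SLC3A2 in the estradiol libraries, against 2.28 and 2.25 times in DMSO. SLC1A5 stood at 518 and 548 CPM in estradiol, against 392 and 455 CPM in DMSO (0.33 ± 0.10, adjusted p = 0.172). SLC7A5 alone made up 38.5 and 40.4% of the summed CPM of all 59 carriers in estradiol, against 28.3 and 27.3% in DMSO. That sum was 6432 and 6178 CPM in estradiol, against 4660 and 4514 CPM in DMSO.

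**Figure D2:**
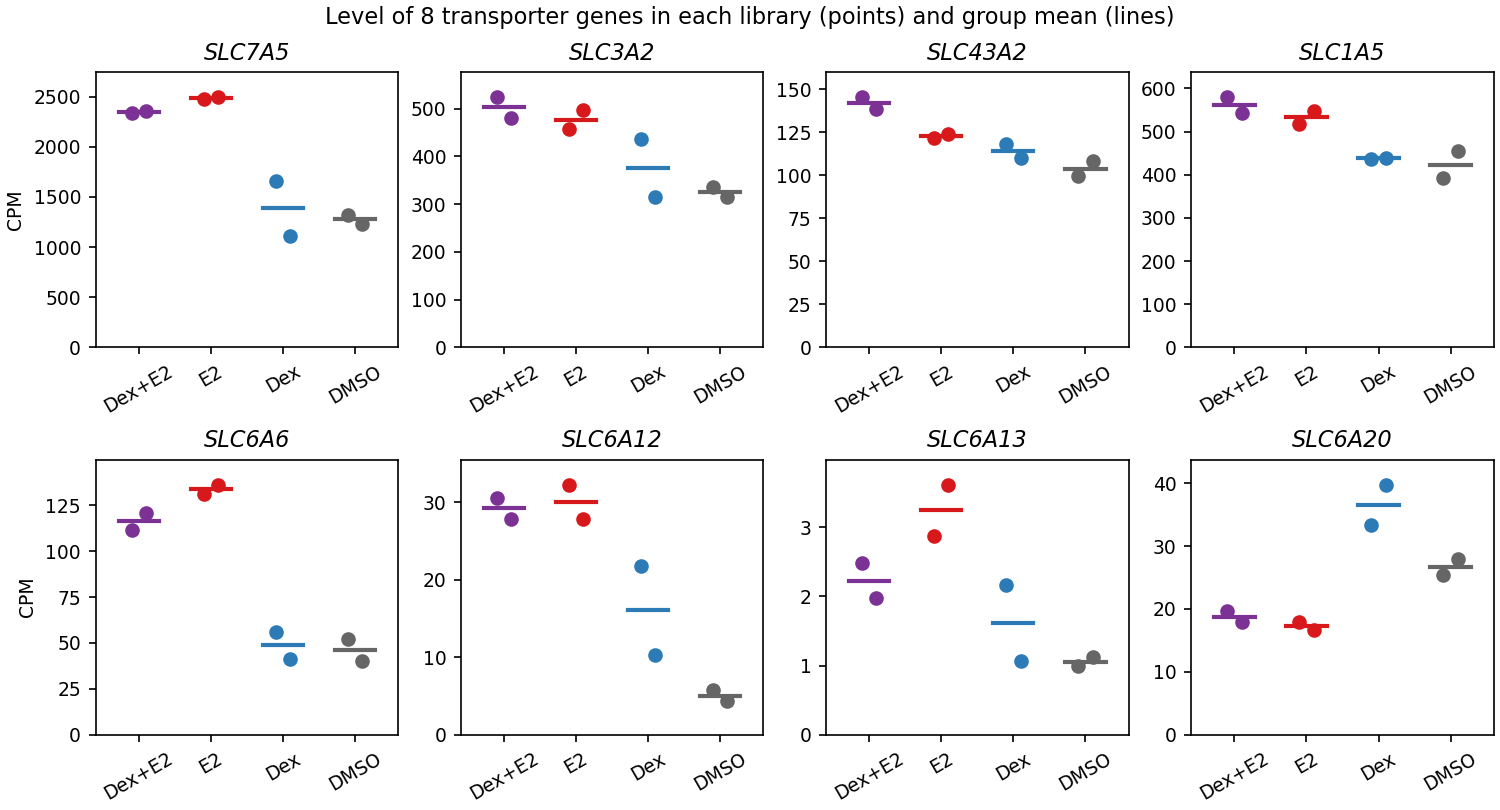
CPM of 8 carrier genes in each library (points) with the group mean (lines), for Dex+E2, E2, Dex and DMSO, on linear axes that start at 0. Every gene shown except SLC6A13 separates the 4 libraries with estradiol from the 4 without, and SLC6A12 is also above DMSO in both dexamethasone libraries.

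Among the carriers called with estradiol, the largest folds were those of 3 SLC6 carriers of osmolytes and GABA. SLC6A6 encodes TauT, the sodium-coupled carrier of taurine. It had 131 and 136 CPM in estradiol, against 51.9 and 40.1 CPM in DMSO. It rose by 1.54 ± 0.15 (2.91-fold, adjusted p = 0.000676), and every estradiol library lay above every library without estradiol. SLC6A12 encodes BGT1, which carries betaine and GABA. It had 32.3 and 27.8 CPM in estradiol, against 5.77 and 4.28 CPM in DMSO. SLC6A12 rose by 2.58 ± 0.29 (5.98-fold, adjusted p = 0.00145), the largest fold of any tested carrier in this comparison. SLC6A13, the related GABA and taurine carrier GAT2, is rarer, with 2.87 and 3.62 CPM in estradiol (51 and 82 counts), against 0.997 and 1.12 CPM in DMSO (19 and 23 counts). It rose by 1.62 ± 0.33 (adjusted p = 0.0378), a call that each DMSO and each estradiol library was needed for (adjusted p between 0.111 and 0.334 when 1 of them was left out). SLC6A8, the creatine carrier, had 17.8 and 14.1 CPM in estradiol, against 12.7 and 14.6 CPM in DMSO, and its groups overlapped. SLC6A16, a carrier of unknown substrate, had at most 22 counts in a library and was not called.

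SLC6A20, the carrier of proline and other imino acids known as SIT1, moved the other way. It had 18.0 and 16.6 CPM in estradiol, against 25.5 and 27.9 CPM in DMSO. The groups did not overlap, and SLC6A20 fell by 0.63 on the log2 scale (SE 0.12, adjusted p = 0.0303). The call was lost without either estradiol library, without DMSO replicate 2 or without combination replicate 1 (adjusted p between 0.0506 and 0.285). Over the alternative runs, the log2 change of SLC6A20 lay between -0.69 and -0.56.

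SLC7A2, the inducible carrier of arginine and lysine CAT2, was near its counting limit. It had 1.63 and 2.78 CPM in estradiol (29 and 63 counts), against 1.05 and 0.438 CPM in DMSO (20 and 9 counts). The difference of 1.60 ± 0.41 did not pass the threshold (adjusted p = 0.0921). It passed without DMSO replicate 1, at 2.34 (adjusted p = 0.0353), and with no filter on low counts, at 1.59 (adjusted p = 0.00891). SLC7A1, its abundant relative, had 580 and 565 CPM in estradiol, against 482 and 504 CPM in DMSO (0.21 on the log2 scale, adjusted p = 0.354). Both genes gave higher values in each estradiol library than in each DMSO library. So did SLC1A1, with an adjusted p of 0.968 in edgeR, so with 2 libraries a group such a gap carries little weight.

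Dexamethasone against vehicle asked which carriers change with dexamethasone alone. Only SLC6A12 was called among the 35 tested carriers in edgeR, where 0.965% of all genes tested were called, 0.908% as higher. It had 21.8 and 10.3 CPM in dexamethasone (452 and 184 counts), against 5.77 and 4.28 CPM in DMSO (110 and 88 counts). Both dexamethasone libraries lay above DMSO, and replicate 1 lay well above replicate 2. SLC6A12 rose by 1.69 ± 0.30 (3.22-fold, adjusted p = 0.0241). With replicate 1 of dexamethasone left out, which had the higher GREB1 level, the change was 1.04 with an adjusted p of 0.0611, and with replicate 2 left out it was 2.12 (adjusted p = 0.000430). The call was also lost without either estradiol library or DMSO replicate 2 (adjusted p between 0.0712 and 0.0912) and when the dexamethasone and DMSO libraries were fitted alone (adjusted p = 0.132).

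The median log2 fold change was 0.08 over the tested carriers and 0.00 over all genes. Next by p-value came carriers that were not called. SLC6A20 had 33.4 and 39.8 CPM in dexamethasone, against 25.5 and 27.9 CPM in DMSO (0.45 ± 0.12, adjusted p = 0.166). SLC36A1, the proton-coupled carrier of glycine, proline and alanine on lysosomes and the plasma membrane, had 23.9 and 26.2 CPM in dexamethasone, against 31.6 and 30.6 CPM in DMSO (-0.32 ± 0.10, adjusted p = 0.296). SLC6A9, the glycine carrier GlyT1, had 27.2 and 29.1 CPM in dexamethasone, against 22.3 and 24.4 CPM in DMSO (0.27 ± 0.10, adjusted p = 0.399). These groups did not overlap for any of the 3 genes, but with 2 libraries a group this also held for SLC36A4 (adjusted p = 0.858 in edgeR). The lowest log2 value among the carriers was -0.96 ± 0.50, for SLC6A16. For SLC7A5 and SLC3A2, the dexamethasone libraries differed from each other more than their mean differed from DMSO, with SLC3A2 at 437 and 315 CPM in dexamethasone, against 335 and 316 CPM in DMSO. In both genes dexamethasone replicate 1 was the higher library.

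The combination against vehicle called 5 carriers, all higher, of the 35 tested, where 2.19% of all genes tested were called, 1.48% as higher. They were SLC6A12, SLC6A6, SLC7A5, SLC43A2 and SLC3A2. Positive log2 fold changes were seen in 30 of 35 carriers (85.7%), against 49.7% of all genes, with medians of 0.14 and -0.00. Such a share was not limited to this comparison. Against DMSO it was 26 of 35 with dexamethasone (all genes 50.9%) and 23 of 35 with estradiol (all genes 48.7%). For the combination it was 24 of 35 against estradiol (all genes 50.6%) and 23 of 35 against dexamethasone (all genes 49.4%). SLC6A12 had 30.6 and 27.8 CPM in the combination and rose 5.82-fold (2.54 ± 0.29, adjusted p = 0.000889). SLC6A6 had 112 and 121 CPM in the combination and rose 2.53-fold (1.34 ± 0.15, adjusted p = 0.000889). SLC7A5 rose 1.84-fold (0.88 ± 0.16, adjusted p = 0.0121), a call lost without either combination library or DMSO replicate 2 (adjusted p between 0.0574 and 0.0685).

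The heavy chain and LAT4 joined them in this comparison. SLC3A2 had 524 and 481 CPM in the combination, against 335 and 316 CPM in DMSO, and rose 1.54-fold (0.63 ± 0.14, adjusted p = 0.0432). SLC43A2 had 145 and 139 CPM in the combination, against 99.3 and 108 CPM in DMSO, and rose 1.37-fold (0.45 ± 0.09, adjusted p = 0.0255). Groups did not overlap for either gene, and the highest SLC43A2 levels of the study were in the combination. Both calls were close to the threshold: the one for SLC3A2 was lost when any single DMSO, estradiol or combination library was left out (adjusted p up to 0.310). The one for SLC43A2 was lost when any single DMSO or combination library was left out (adjusted p up to 0.287), and when only the combination and DMSO libraries were fitted (adjusted p = 0.0697). Over the alternative runs, the log2 change lay between 0.56 and 0.69 for SLC3A2 and between 0.39 and 0.52 for SLC43A2. SLC43A2 also shares stretches of up to 321 bases with other genes, so part of its counts may be assigned uncertainly.

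The carriers next in order of p did not pass the threshold in the main edgeR run. DESeq2 called SLC1A5 (adjusted p = 0.00835) and SLC6A20 (adjusted p = 0.0495). With no filter on low counts, edgeR called SLC1A5, SLC6A17, SLC6A20 and SLC7A2 (adjusted p = 0.0297, 0.0163, 0.0294 and 0.0208). In the main edgeR run SLC7A2 was at 1.44 ± 0.41 (adjusted p = 0.134). SLC1A5 had 579 and 543 CPM in the combination, against 392 and 455 CPM in DMSO (0.41 ± 0.10, adjusted p = 0.0796). SLC6A17, a carrier of neutral amino acids known from synaptic vesicles, had 3.68 and 4.44 CPM in the combination, against 2.41 and 1.70 CPM in DMSO (0.98 ± 0.25, adjusted p = 0.0834). SLC6A20 had 19.7 and 17.9 CPM in the combination, against 25.5 and 27.9 CPM in DMSO (-0.51 ± 0.12, adjusted p = 0.0700). The groups did not overlap for any of these genes, but this also held for SLC36A4 (adjusted p = 0.909 in edgeR).

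**Figure D3:**
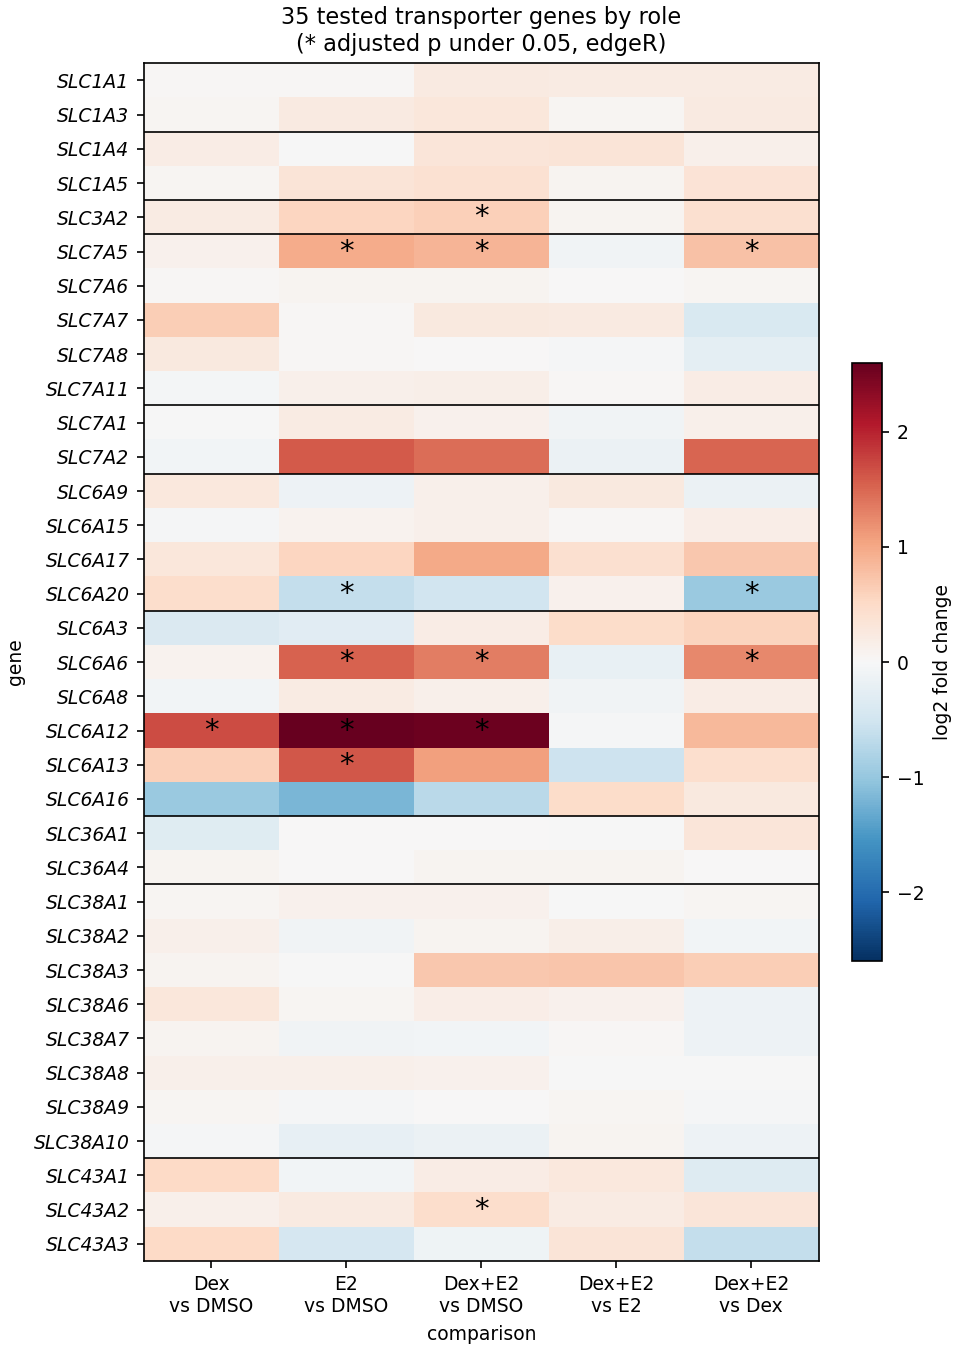
Log2 fold changes of the 35 tested carriers (rows, grouped by role with black lines) in 5 comparisons (columns), from blue (lower) to red (higher); a star marks an adjusted p under 0.05 in edgeR. SLC6A12 reaches 2.58 with estradiol, and the column of the combination against E2 holds no star.

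Adding estradiol to dexamethasone called 3 carriers of 35, with SLC6A6 and SLC7A5 higher and SLC6A20 lower, where 2.67% of all genes tested were called, 0.824% as higher and 1.84% as lower. SLC6A6 had 112 and 121 CPM in the combination, against 56.1 and 41.2 CPM in dexamethasone (2.39-fold, 1.26 ± 0.15, adjusted p = 0.00329). SLC6A20 had 19.7 and 17.9 CPM in the combination, against 33.4 and 39.8 CPM in dexamethasone, a fold of 0.514 (-0.96 ± 0.12, adjusted p = 0.00338). SLC7A5 had 2339 and 2359 CPM in the combination, against 1661 and 1111 CPM in dexamethasone (1.70-fold, 0.76 ± 0.16, adjusted p = 0.0299). The groups did not overlap for these 3 genes, and the SLC7A5 gap was widest against dexamethasone replicate 2. SLC6A6 stayed called without dexamethasone replicate 1 (1.49, adjusted p = 0.00138) or replicate 2 (1.05, adjusted p = 0.0198), and so did SLC6A20 (-1.08, adjusted p = 0.00264, and -0.84, adjusted p = 0.0253). Without dexamethasone replicate 2 the SLC7A5 change was 0.50 (adjusted p = 0.102), and its call was also lost when any single estradiol or combination library was left out (adjusted p between 0.0695 and 0.160). Without dexamethasone replicate 1 the change was 1.08 for SLC7A5, 1.50 for SLC6A12 and 0.67 for SLC3A2. With both dexamethasone libraries, SLC6A12 was at 0.85 ± 0.26 (adjusted p = 0.126) and SLC3A2 at 0.42 (adjusted p = 0.158). SLC7A2 was at 1.51 ± 0.41 (adjusted p = 0.0928) and SLC1A5 at 0.36 ± 0.10 (adjusted p = 0.102). Of these genes DESeq2 called SLC1A5 (adjusted p = 0.0269), and edgeR with no filter on low counts called each of them. SLC7A2 passed without either DMSO library (adjusted p = 0.0403 and 0.0420) and when only the combination and dexamethasone libraries were fitted (adjusted p = 0.0389).

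The estradiol effect was thus measured in separate pairs of libraries, with dexamethasone present and without it. The sign was the same in 27 of 35 carriers (77.1%), where it was the same in 66.1% of all genes tested. Pearson's r between both effects was 0.70 across the 35 carriers and 0.40 across all genes, given as a description, since genes are not independent replicates. SLC6A6 changed by 1.26 with dexamethasone present and by 1.54 without, SLC7A5 by 0.76 and 0.96, and SLC6A20 by -0.96 and -0.63. SLC6A12 and SLC6A13 stood off this pattern. SLC6A12 was at 0.85 with dexamethasone present and 2.58 without. SLC6A13 was at 0.44 ± 0.32 with dexamethasone present (adjusted p = 0.541 in edgeR) and 1.62 without. The interaction tests these differences.

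**Figure D4:**
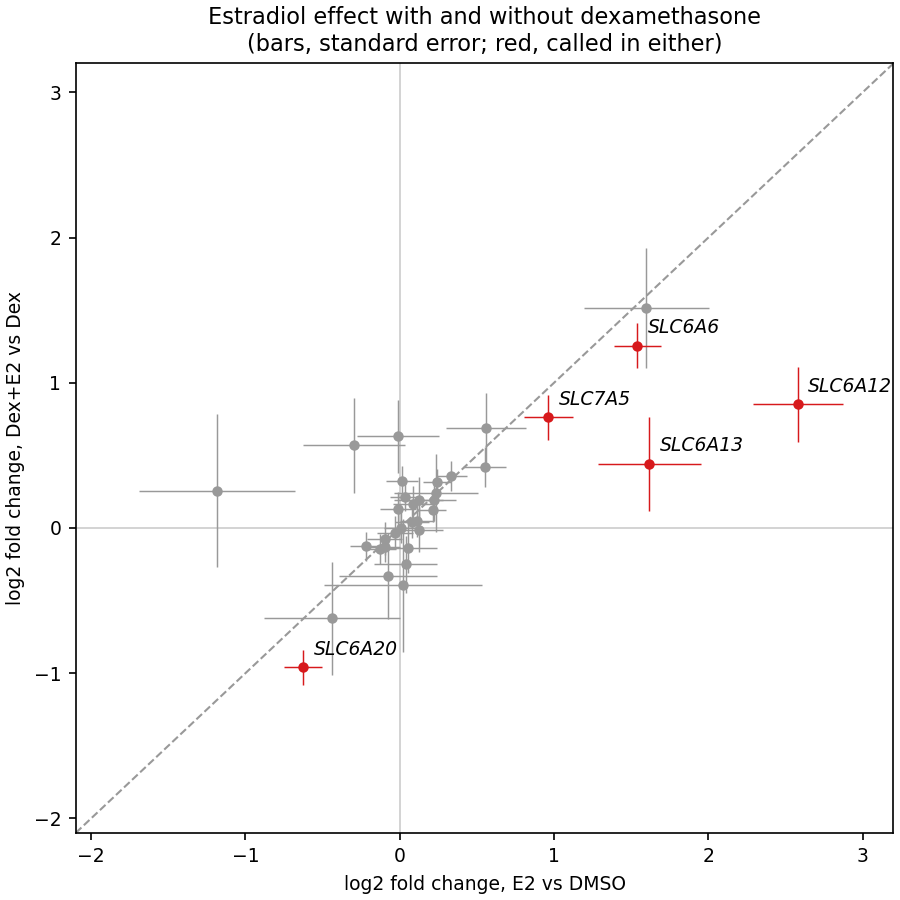
Log2 fold change by estradiol in 35 carriers, with dexamethasone present (vertical axis, Dex+E2 over Dex) and without it (horizontal axis, E2 over DMSO), with standard errors as bars and the line of equal change dashed. Genes called in either comparison are red. SLC6A6 and SLC7A5 lie near the line. SLC6A12 lies below it at 0.85 against 2.58, and so does SLC6A13 at 0.44 against 1.62.

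Adding dexamethasone to estradiol called 0 of 35 carriers in edgeR and 0 of the 34 for which DESeq2 gave an adjusted p, where 0.275% of all genes tested were called in edgeR. At an unadjusted p under 0.05 there were 4 carriers, where 6.37% of all genes passed. The carriers with the smallest p were SLC38A3, a glutamine carrier at 4.13 and 4.71 CPM in the combination, against 2.36 and 2.96 CPM in estradiol (0.72 ± 0.25, adjusted p = 0.602), and SLC1A4, at 102 and 104 CPM in the combination, against 85.7 and 78.6 CPM in estradiol (0.33 ± 0.11, adjusted p = 0.602). SLC43A2, SLC6A9 and SLC1A1, the glutamate carrier EAAC1, came next, at 0.21, 0.25 and 0.20 on the log2 scale. SLC6A6 differed by -0.20 ± 0.15 and SLC7A5 by -0.08. For SLC6A12 the difference was -0.04, with 30.6 and 27.8 CPM in the combination and 32.3 and 27.8 CPM in estradiol. The dexamethasone effects with and without estradiol had the same sign in 23 of 35 carriers (65.7%), against 59.7% of all genes. Between these effects Pearson's r was -0.21 and Spearman's rho 0.17 across the carriers. Across all genes they were 0.22 and 0.23, again only as a description.

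The interaction, the change by dexamethasone on top of estradiol less its change on top of DMSO, called 0 of 35 carriers in edgeR and 0 of the 24 with an adjusted p in DESeq2, where 0.0211% of all genes tested were called in edgeR. At an unadjusted p under 0.05 there were 2 carriers, where 5.16% of all genes passed. They were SLC6A12, at -1.73 ± 0.39 (adjusted p = 0.440), and SLC6A13, at -1.18 ± 0.47 (adjusted p = 0.945). Without dexamethasone replicate 2, the SLC6A12 interaction was -2.16 with an adjusted p of 0.0124, and without dexamethasone replicate 1 it was -1.08 with an adjusted p of 0.501. Leaving out any other library gave adjusted p-values between 0.285 and 1.00. The SLC6A13 interaction was -0.56 without dexamethasone replicate 1 (adjusted p = 0.877). In these libraries SLC6A12 had nearly equal levels in both estradiol groups, an intermediate level with dexamethasone alone and the lowest level in DMSO.

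The other carriers were not called. The SLC38 family, with 8 tested members, had 0 calls in edgeR and 0 in DESeq2 in each of the 6 comparisons, where between 0.0211 and 2.67% of all genes were called in edgeR, so 0 of 8 does not set the family apart. Only SLC38A3 had an unadjusted p under 0.05, in the 3 comparisons that involve the combination directly. SLC38A1 was between 691 and 843 CPM over the 8 libraries, with overlapping groups, and SLC38A2 was between 415 and 553 CPM. SLC38A9, the arginine sensor on lysosomes, was between 15.4 and 17.1 CPM. SLC36A4, a lysosomal carrier of proline and tryptophan, was between 45.3 and 54.9 CPM. SLC7A11 was between 218 and 304 CPM, and the widest gap lay between replicates of estradiol. SLC7A6, the light chain that exchanges arginine for neutral amino acids, was between 36.6 and 43.2 CPM, but 53% of its exon length overlaps SLC7A6OS on the opposite strand, so these counts are uncertain. SLC6A8 shares 2062 bases at 96.4% identity with SLC6A10P and is uncertain because near-identical copies can share reads. The rarer carriers SLC1A3, SLC7A7, SLC7A8, SLC43A1 and SLC43A3 stayed at or below 4.10 CPM and were not called.

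Genes around the carriers in amino acid metabolism were read from 4 lists. Of 19 tested starvation response genes, targets of the transcription factor ATF4 other than carriers, estradiol called 2. DDIT4, an inhibitor of mTORC1 signalling, averaged 195 ± 7.3 CPM in estradiol and 453 ± 13.4 CPM in DMSO (-1.22 ± 0.09, adjusted p = 0.000221). CEBPB, a transcription factor of the C/EBP family, averaged 60.2 ± 5.98 CPM in estradiol and 33.6 ± 1.82 CPM in DMSO (0.84 ± 0.10, adjusted p = 0.00205). The list's median log2 change with estradiol was 0.01, against -0.00 over all genes. The combination called the same genes against DMSO, DDIT4 at -0.77 and CEBPB at 0.73.

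With dexamethasone, NUPR1, a stress-induced chromatin protein gene, averaged 19.2 ± 0.0999 CPM against 11.5 ± 1.13 CPM in DMSO (0.75 ± 0.14, adjusted p = 0.0389), the only call of that list. Of 22 tested carriers from other SLC families, SLC25A29, a mitochondrial carrier of basic amino acids, averaged 41.6 ± 1.74 CPM in dexamethasone and 25.1 ± 1.93 CPM in DMSO. It rose with dexamethasone (0.73 ± 0.12, adjusted p = 0.0121) and with the combination against DMSO (0.56 ± 0.12, adjusted p = 0.0300). In the combination against dexamethasone, FGF19 of the starvation list rose at a low level, to 1.16 ± 0.0536 CPM in the combination, against 0.253 ± 0.119 CPM in dexamethasone (2.14 ± 0.41, adjusted p = 0.0224), and DDIT4 fell by 1.01. PRODH, the enzyme that begins proline breakdown, averaged 5.58 ± 1.06 CPM in the combination and 13.4 ± 3.14 CPM in dexamethasone (-1.26 ± 0.24, adjusted p = 0.0205). PRODH was the only call among 32 tested enzymes of amino acid synthesis and breakdown in any comparison with edgeR, and DESeq2 called it in dexamethasone against DMSO as well (adjusted p = 0.0416). Among 38 genes of amino acid sensing upstream of mTORC1, edgeR called 0 in each comparison, while DESeq2 called 1 with estradiol, SESN3 (adjusted p = 0.0227), and 0 in the other comparisons. At an unadjusted p under 0.05 in edgeR, that sensing list had 1 gene with estradiol, 4 with dexamethasone and 2 with the combination against DMSO, 0 in the combination against estradiol, 4 against dexamethasone and 1 in the interaction. Over all genes these shares were 11.4%, 9.84%, 10.8%, 6.37%, 16.7% and 5.16%, so the list was near or below the background.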

How the data were processed

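Per the labels' protocols, a stranded mRNA kit was used for the 8 Ishikawa libraries. The authors deposited raw counts for each gene, which were tested here, and a normalised table, which was not used. Build hg19 and the tools HISAT2 2.0.4, featureCounts 1.5.1 of Subread and DESeq2 1.14.1 are named per the submitters' processing notes. Neither the annotation nor the strand setting used in counting is given there, so overlapping genes may share reads. Columns were assigned by name. Both combination columns carry the number 1, so the one that does not match a label was used as a combination library without a number.

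The tests used edgeR 4.0.16 in R 4.3.3: filterByExpr by group left 14201 of 26364 genes, TMM scaling followed, and the quasi-likelihood model was fitted to all 8 libraries in 4 groups, with 4 residual degrees of freedom. There were 6 contrasts: 3 against DMSO, the combination against E2 and against Dex, and the interaction. Benjamini-Hochberg adjustment ran over all genes tested, with a threshold of 0.05. CPM are counts scaled to the TMM library size, with SD over n = 2, and levels per kilobase use exon lengths of GENCODE on GRCh38. The SE of a log2 change is its absolute value divided by the square root of the quasi-likelihood F. Shared sequence was searched with blastn 2.17.0 (stretches of at least 100 bases at 95% identity or more). Promoter windows are from RefSeq, GRCh38.p14. The limit for a count of 0 is 3 counts and covers counting error only.

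The members, the lists and the tests were chosen with earlier results of these data known. Named carriers are those called in a contrast, the 5 with the smallest p per contrast, the 10 highest per kilobase in DMSO, and a list of well-known carriers. MYC, GREB1, PGR and the pseudogenes were added after their values were seen. The alternatives were DESeq2 1.42.0, RLE scaling, no filter, only the libraries compared, a replicate block, and each library left out. The pipeline was tested on simulated data.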

Additional observations from a re-analysis of the deposited data

How the results depend on the processing

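No value of a called carrier reversed under any alternative run. Of the 14 called values, 6 stayed past the threshold under every alternative: SLC6A6 and SLC6A12 with estradiol and with the combination against DMSO, and SLC6A6 and SLC6A20 in the combination against dexamethasone. Without the filter on low counts, every gene with a count in any library was kept. The combination then had 9 called carriers against DMSO (5 with the filter) and 7 against dexamethasone (3 with the filter). The interaction had 1, SLC6A12 with an adjusted p of 0.00359 in edgeR (0 with the filter). Shares over all genes for this setting are not given here, and the cause was not tested. With only the libraries compared, dexamethasone against DMSO had 0 called carriers instead of 1, with fewer residual degrees of freedom by construction. Over all genes, 65 were called instead of 137.

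Each run with a library left out kept 1 library in a group. How many genes pass the threshold then also changes over the whole table, so counts of called carriers from these runs are not given. DESeq2 called 1, 6, 7, 0, 4 and 0 carriers in the order dexamethasone, estradiol and combination against DMSO, combination against estradiol, combination against dexamethasone and interaction. In that order it called 1.30, 2.43, 2.62, 0.549, 3.47 and 0.138% of all genes given an adjusted p. With the replicate block, fitted on the 6 numbered libraries of estradiol, dexamethasone and DMSO, 1 carrier was called for dexamethasone and 6 for estradiol, and the counts over all genes were 232 instead of 137 and 440 instead of 256. The numbers are not shown to pair the libraries. Number 1 minus number 2 was taken within DMSO, dexamethasone and estradiol as a log CPM difference per tested gene. These differences correlated between groups at 0.0493 to 0.243. Contrasts with the combination could not be fitted with the block because a combination library has no number. Low counts limit the precision of rare carriers: SLC7A2 rested on 20 and 9 counts in DMSO, and whether it was called depended on the filter and on the libraries kept.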

Other observations

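Other genes known for osmolyte balance were read after their values were seen, beside the taurine and betaine carriers. NFAT5, the transcription factor of the hypertonic response, lay between 91.1 and 133 CPM over the 8 libraries. SLC5A3, the inositol carrier, lay between 171 and 260 CPM. AKR1B1, the aldose reductase that makes sorbitol, lay between 75.0 and 95.8 CPM. None of these 3 genes was called in any of the 6 comparisons in edgeR. With estradiol against DMSO the log2 values were 0.04 for NFAT5, 0.11 for SLC5A3 and -0.02 for AKR1B1.

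The pseudogenes of SLC7A5 were low but were not level across groups. SLC7A5P1 had 1.35 and 2.21 CPM in estradiol (24 and 50 counts), against 0.787 and 0.292 CPM in DMSO (15 and 6 counts), a log2 difference of 1.75 ± 0.44 (adjusted p = 0.0896 in edgeR). SLC7A5P2 had 2.93 and 3.40 CPM in estradiol, against 1.57 and 1.07 CPM in DMSO (1.27 ± 0.37, adjusted p = 0.157). Both share long stretches with SLC7A5, and how reads were split between them was not tested.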
